A study of Mus musculus with 32 samples.

Results

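Of the 44081 genes with counts on their 3′UTR, 8 encode subunits of the sodium pump or calcium pumps of the plasma membrane and the endoplasmic reticulum (ER) and are described here: Atp1b1, Atp1b2, Atp1b3, Atp2a2, Atp2b1, Atp2b2, Atp2b3 and Atp2b4. They were chosen by name, as a fixed list, and all 8 are also among the 23453 genes counted on exons. The cells were hippocampal neurons of C57BL/6 mice, taken at embryonic day 18 and kept in culture for 15 days with no further treatment in the labels. From each of 16 neurons the dendrites and the soma were collected separately, which gave 16 dendrite and 16 soma libraries paired by neuron. The RNA of neurons 1 to 4 was amplified in 3 rounds and that of the other 12 neurons in 2 rounds, and both compartments of a neuron had the same number of rounds. The question of each comparison was whether a transcript was relatively more abundant in the dendrites or in the soma of the same cell.

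The Na,K-ATPase exports sodium and imports potassium at the cost of ATP and so restores the gradients that electrical activity runs down. Its catalytic alpha subunit needs a beta subunit to fold and to reach the cell surface, and Atp1b1, Atp1b2 and Atp1b3 encode such beta subunits. SERCA pumps return calcium from the cytosol to the ER, and plasma membrane calcium ATPases (PMCAs) export it from the cell. Both kinds of pump end calcium signals in dendrites, spines and somas.

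Dendrites had 646521 to 6954420 reads on 3′UTRs and somas 925525 to 21169974. Of the 6 neuronal markers examined, all had reads in both compartments, and their summed level was 3194 to 14580 CPM (counts scaled to library size, per 1000000 reads) in dendrites and 3249 to 12450 in somas. The 3 markers of GABAergic interneurons (Gad1, Gad2 and Slc32a1) had a median summed level of 4033 CPM in dendrites and 9639 in somas, and the 5 markers of pyramidal neurons had 212 and 105.5 CPM. Some libraries stood apart. The interneuron sum was above the pyramidal sum in 16 of 16 dendrite libraries and 15 of 16 somas. In the soma of neuron 2 it was 1126 CPM, against 2179 for the pyramidal markers. The dendrites of neuron 2 had 3813 CPM for interneuron and 101.5 for pyramidal markers. Map2, whose mRNA is known to enter dendrites, was higher in the dendrites than in the soma of 14 of the 16 neurons and not in neurons 2 and 14. The dendrites of neurons 15 and 16 had the fewest genes with at least 10 reads, 1570 and 2485, against a median of 6052.5. In neuron 5 the dendrites held more such genes than the soma (9871 against 6889).

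Because aRNA amplification starts from the poly(A) tail, the reads of a gene lie mainly near its 3′ ends. Annotated 3′ ends of the 4 most widely detected genes are shown here, as the kind of sequence near which such reads lie, in 30-base windows of GENCODE transcripts on GRCm38 around the AATAAA polyadenylation signal, which is printed in capitals. The numbered end features counted below carry no coordinates, so these windows are not matched to them. All 6 lie in 3′UTRs, and 2 such ends are shown for both Atp2a2 and Atp2b2.

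Atp1b1, chr1:164437112-164437141, minus strand: aacacaacggacAATAAAagaatgaacaca
Atp2a2, chr5:122453523-122453552, minus strand: tgatttcaggtaAATAAAtctattctacga
Atp2a2, chr5:122456340-122456369, minus strand: gtttaaaagaaaAATAAAacattttaaatg
Atp2b1, chr10:99026103-99026132, plus strand: cttaactcatttAATAAAtatactgtttat
Atp2b2, chr6:113743848-113743877, minus strand: ctaagcaataacAATAAAtgcacacatgga
Atp2b2, chr6:113745686-113745715, minus strand: acaataattgtaAATAAAgaattcaccgtc

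The search took the last 50 bases of each annotated coding transcript on its own strand, and AATAAA was found in 48.6% of all distinct 3′ ends. Each of the 8 genes had at least 1 end with it, a count per gene that cannot be set against the share per end. Atp1b2, Atp2b1, Atp2b2, Atp2b3 and Atp2b4 also had annotated ends without it, which are not shown. A match is a description of the sequence alone.

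Atp1b1, Atp2a2, Atp2b1 and Atp2b2 had at least 10 reads in every soma, and Atp1b1 had them in every dendrite library as well. Atp2a2 reached 10 reads in 15 of 16 dendrite libraries, Atp2b1 in 12, Atp2b2 in 11, Atp2b3 in 9, and Atp1b2 and Atp1b3 in 7 each. Atp2b4 reached 10 reads in 1 dendrite library and in 0 of 16 somas. A soma held between 4 and 7 of the 8 genes at this level (median 7) and a dendrite library between 1 and 7 (median 5), with the fewest in the dendrites of neurons 15 (1 gene) and 16 (2 genes). With both libraries of a neuron thinned to the same number of reads, these counts of libraries were the same for all 8 genes. Atp1b1 and Atp2a2 were thus present nearly throughout, and the other genes were patchy in dendrites.

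Levels were compared between genes per kilobase of annotated 3′UTR. In dendrites the medians were 1157 CPM per kilobase for Atp1b1 and 329 for Atp2a2, and the quartile ranges of these genes did not overlap each other or that of the third gene, Atp2b1 (21.2). The order went on with Atp2b3 (18.9), Atp2b2 (11.3), Atp1b3 (5.12) and Atp1b2 (2.82), all with quartile ranges that overlapped that of the next gene. Atp2b4 came last at 0.0133 CPM per kilobase. In somas Atp1b1 (2876 CPM per kilobase) and Atp2a2 (820) were again first and second, with Atp1b1 above Atp2a2 in all 16 libraries of both compartments. Atp1b3 (110 CPM per kilobase) followed, and then Atp2b3 (60.8), Atp2b2 (37.0), Atp2b1 (35.2) and Atp1b2 (13.1), whose quartile ranges overlapped from neighbour to neighbour, while the median of Atp2b4 was 0. This order depends on division by the whole 3′UTR length although reads lie mainly near the ends. The lengths are from GENCODE, not from the annotation the reads were counted on. Without this division the soma medians of these genes were 182 CPM for Atp2b1, 174 for Atp2b2, 96.2 for Atp1b3, 51.2 for Atp2b3 and 19.9 for Atp1b2.

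**Figure D1:**
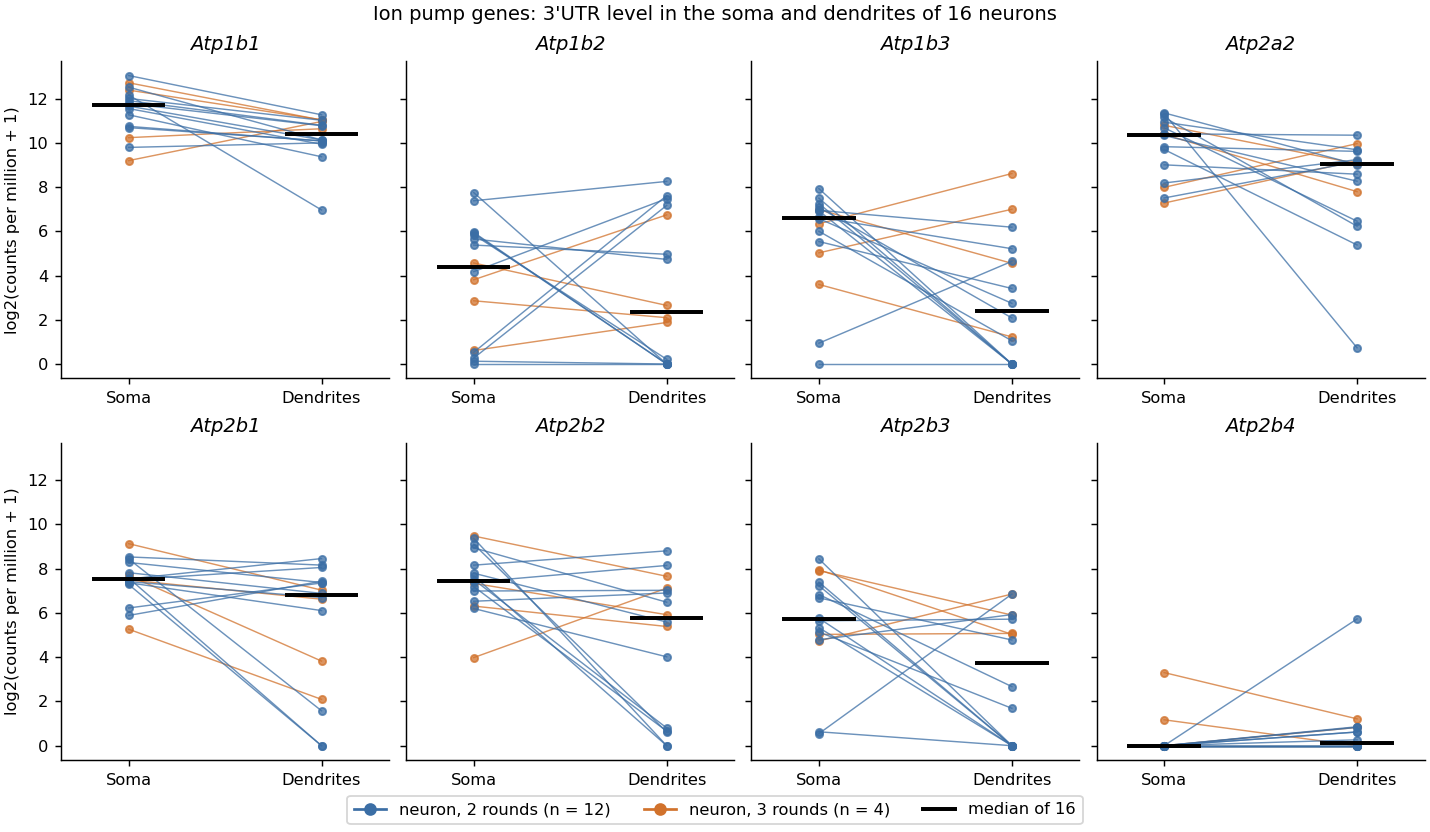
Level of each of the 8 genes in the soma and the dendrites of 16 neurons, as log2(CPM + 1) on 3′UTR reads. Each line joins the soma and dendrites of 1 neuron, blue for 2 rounds of amplification and orange for 3, and black bars are medians. Atp1b1 and Atp2a2 sit high in both compartments, several genes drop to 0 in some dendrites, and Atp2b4 is at 1.32 CPM or less in all but the dendrites of neuron 9 (52.1 CPM) and the soma of neuron 2 (8.88 CPM).

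All 7 genes that passed the filter on low counts (1 or more reads in 16 or more libraries) had lower estimates in dendrites than in somas, and 0 of the 7 passed edgeR's quasi-likelihood test (Benjamini-Hochberg adjusted p no higher than 0.05). In the same test 5.71% of all 10880 genes were called lower in dendrites and 0.827% higher. At an unadjusted p under 0.05, 5 of the 7 genes were lower (Atp1b1, Atp1b3, Atp2a2, Atp2b2 and Atp2b3), against 26.7% of all genes. The median log2 fold change of dendrites over soma was -1.58 for the 7 genes and -1.49 for all genes tested, and 78.8% of all genes were below 0, so the difference of each gene from the median gene is given with its fold change on 3′UTR counts. DESeq2 called 6 of the 7 lower, all but Atp1b2, but called 46.2% of all genes lower and 4.26% higher. An exact sign-flip permutation test over the 16 pairs, adjusted over all genes, called 3 of the 7 lower (Atp1b1, Atp1b3 and Atp2b2) and 19.7% of all genes, with 3.24% higher. The ranges of dendrites and somas overlapped for each of the 8 genes, as they did for every gene tested (0% of 10880 had ranges apart).

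Atp1b1, at chr1:164437109-164458355, encodes the beta1 subunit. In dendrites its level ranged from 124 CPM in neuron 16 through a median of 1354 to 2460 in neuron 11. In somas it ranged from 584 CPM in neuron 2 through a median of 3365 to 8424 in neuron 11. The soma was higher in 13 of 16 neurons, and the dendrites were higher in neurons 2, 3 and 6, so the same cell held the highest value of both compartments and neuron 2 was reversed (1993 CPM in dendrites against 584). The log2 fold change was -1.18 (SE 0.40, edgeR adjusted p = 0.0572), with a difference of 0.32 from the median gene. The adjusted p was 0.0261 with neuron 2 left out and ran up to 0.192 in the other fits that left out 1 neuron. Of the reads of Atp1b1 in a neuron, scaled for depth, a fraction of 0.331 ± 0.178 (SD, n = 16) lay in the dendrites, with a range from 0.0263 to 0.773.

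Atp1b3, at chr9:96332655-96364442, encodes the beta3 subunit. Its dendrite level ran from 0 through a median of 4.47 to 390 CPM, and its soma level from 0 through 96.2 to 242 CPM. The highest dendrite value belonged to neuron 3 and stood apart from the next, 126.5 CPM, and 5 dendrite libraries had no read. In 8 neurons the gene reached 10 reads in the soma alone, in 6 in both compartments and in 1 in the dendrites alone. Of the 15 neurons with reads, 12 had more in the soma. The log2 fold change of -3.50 (SE 1.41, edgeR adjusted p = 0.0983) was the lowest of the 7, with a difference of -2.003 from the median gene. With 1 neuron left out it ran from -3.97 to -2.74, moving by over 1.5 times in fold without neuron 13 (-2.90), 15 or 16 (both -2.74), and Atp2b3 was lower without neuron 6 (-3.65 against -3.40), 9 (-3.42 against -3.04) or 16 (-2.80 against -2.74). Its dendritic fraction was 0.251 ± 0.337 (SD, n = 15).

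Atp1b2, at chr11:69599736-69605942, encodes the beta2 subunit, which is also a cell adhesion molecule and is abundant in astrocytes. Its level ran from 0 through 4.27 to 304 CPM in dendrites and from 0 through 19.9 to 214 CPM in somas. The soma was higher in 9 of the 15 neurons with reads and the dendrites in 6, and the high values were split. The dendrites of neurons 6, 7 and 8 held 195, 177 and 143 CPM beside 0.444, 17.1 and 0.205 CPM in their somas. The soma of neuron 15 held 214 CPM beside 0 in its dendrites, and only neuron 14 was high on both sides (304 CPM in dendrites and 165 in the soma). The log2 fold change was -0.50 (SE 1.51, edgeR adjusted p = 0.830), 0.99 from the median gene, and its direction turned without neuron 13 or without neuron 15 (0.21 and 0.22). All 8 astrocyte markers had at least 1 read in both compartments, but only 3 reached 10 reads in 8 libraries of dendrites, and 3 in somas. The summed level of the 8 was 0 to 1857 CPM in dendrites (median 363.5) and 13.9 to 753 in somas (median 266). In the dendrites this sum was 1042 CPM in neuron 6, 230.5 in neuron 7, 1857 in neuron 8 and 1137 in neuron 14, and 1342 in neuron 3, where Atp1b2 was at 3.27 CPM. The part of astrocyte RNA in the values of Atp1b2 was not tested.

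Within each library, the reads of the 3 beta subunits belonged mostly to Atp1b1. Its share was 80.2% to 100% in dendrites (median 96.5%) and 90.3% to 100% in somas (median 95.1%). Atp1b1 was the first beta subunit in all 32 libraries, by reads and per kilobase. The lowest share, in the dendrites of neuron 3, went with 19.7% for Atp1b3, and the largest share of Atp1b2 was 16.0%, in the dendrites of neuron 6. Atp1b3 was the second beta subunit in most somas (median share 3.64%, against 0.814% for Atp1b2).

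**Figure D2:**
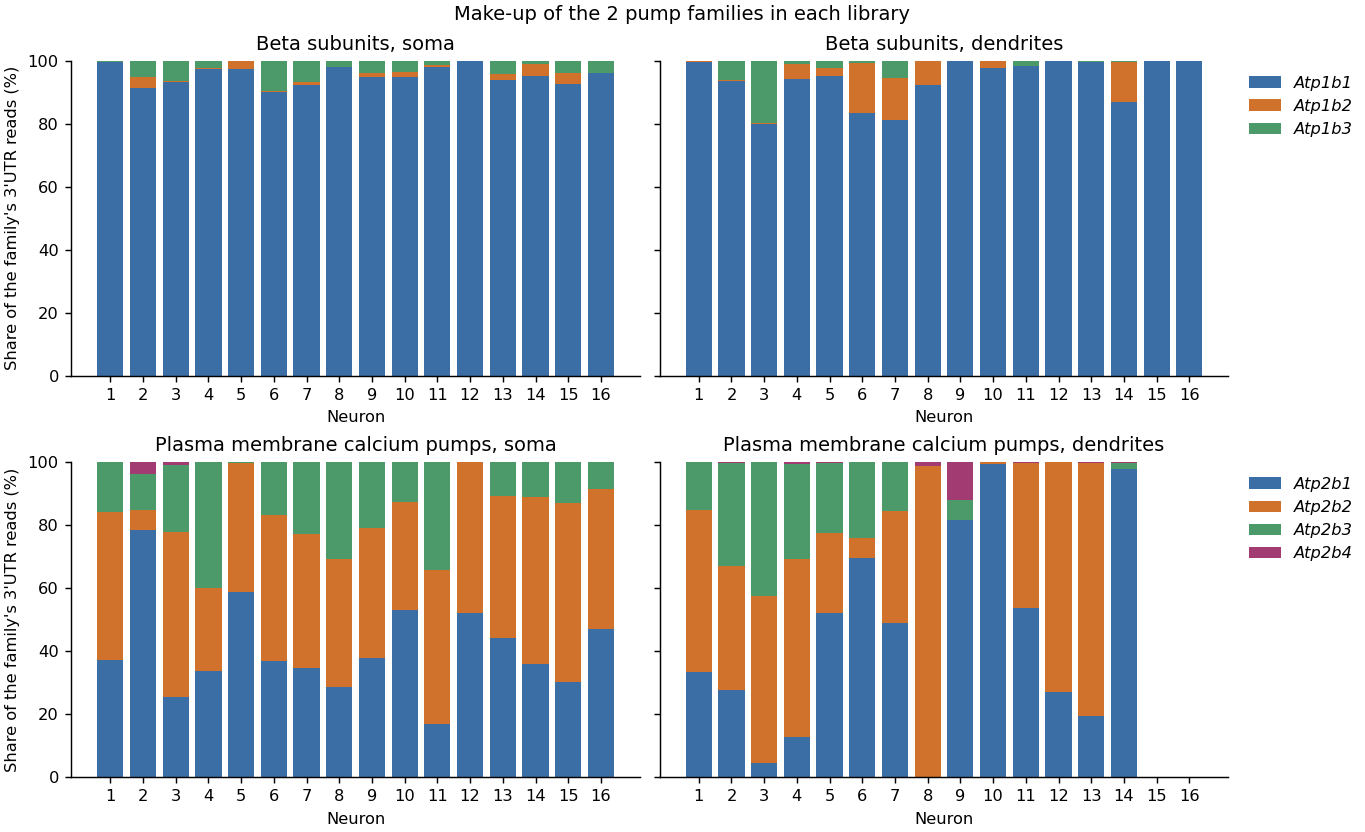
Share of each beta subunit gene (top) and each plasma membrane calcium pump gene (bottom) in the 3′UTR reads of its family, in percent, for the soma (left) and dendrites (right) of neurons 1 to 16. Shares are not corrected for length, and a library with fewer than 10 family reads has no bar (the dendrites of neurons 15 and 16 for the calcium pumps). Atp1b1 fills at least 80.2% of every bar of the beta subunits, and Atp2b1 and Atp2b2 fill most of the calcium pump bars in proportions that differ between neurons.

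Atp2a2, at chr5:122453513-122502225, encodes SERCA2, the main calcium pump of the ER outside fast skeletal muscle. Its dendrite level ran from 0.662 CPM in neuron 15 through a median of 524 to 1297 CPM in neuron 9. Its soma level ran from 154 CPM in neuron 2 through a median of 1308 to 2612 CPM in neuron 11. The dendrites of neuron 15 held 1 read of the gene, beside 23651 reads in its soma, and no other dendrite library was below 40.7 CPM. The soma was higher in 12 of 16 neurons, and the dendrites were higher in neurons 2, 3, 6 and 7. The log2 fold change was -1.43 (SE 0.68, edgeR adjusted p = 0.149), 0.07 from the median gene, and the dendritic fraction was 0.347 ± 0.286 (SD, n = 16).

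Atp2b1, at chr10:98914406-99026143, encodes PMCA1, the isoform that most cells express. Its dendrite level ran from 0 through 110 to 350 CPM and its soma level from 37.5 through 182 to 560 CPM. The dendrites of neurons 8 and 16 had no read, and those of neuron 9 were the highest. In 12 of 16 neurons the soma was higher, with a log2 fold change of -1.58 (SE 0.89, edgeR adjusted p = 0.214), -0.09 from the median gene. The dendritic fraction was 0.323 ± 0.254 (SD, n = 16).

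Atp2b2, at chr6:113743831-114042613, encodes PMCA2, a fast isoform best known from Purkinje cells and hair cells. Its dendrite level ran from 0 through 53.4 to 447 CPM and its soma level from 14.8 through 174 to 712 CPM. The dendrites fell into those with 40.9 CPM or more in 10 neurons, 15.2 CPM in neuron 6 and less than 1 CPM in neurons 9, 10, 14, 15 and 16, whose somas all held at least 145 CPM. The soma was higher in 11 of 16 neurons, with a log2 fold change of -2.32 (SE 1.05, edgeR adjusted p = 0.133), -0.83 from the median gene. It was -1.69 without neuron 15 and -1.71 without neuron 16, both moves of over 1.5 times in fold. The dendritic fraction was 0.285 ± 0.281 (SD, n = 16).

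Atp2b3, at chrX:73503086-73571005, encodes PMCA3, an isoform of brain and few other tissues. Its dendrite level ran from 0 through 15.9 to 115 CPM and its soma level from 0.461 through 51.2 to 346 CPM. No read was found in 6 dendrite libraries, and the somas of 5 of those neurons held at least 10 reads. Neuron 5 went the other way, with 148 reads in dendrites and 1 in the soma. Somas were higher in 11 of 16 neurons, with a log2 fold change of -3.20 (SE 1.42, edgeR adjusted p = 0.125), -1.71 from the median gene. It was -2.45 without neuron 15 and -2.49 without neuron 13, both moves of over 1.5 times in fold, and ran down to -3.68 in the other fits that left out 1 neuron. The dendritic fraction was 0.277 ± 0.339 (SD, n = 15).

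Atp2b4, at chr1:133699457-133801041, encodes PMCA4, and was close to absent. It had 327 reads in the dendrites of neuron 9 and 9 reads in the soma of neuron 2, and every other library held 3 reads or fewer, 0 of them in 8 dendrite libraries and 14 somas. It did not pass the filter and was not in the edgeR fit above on 3′UTR counts. Without the filter its log2 fold change was 2.39 (SE 1.31, edgeR adjusted p = 0.412).

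By 3′UTR reads, Atp2b1 and Atp2b2 shared the lead among the 4 PMCA genes. In the 14 dendrite libraries with at least 10 PMCA reads, each was first in 7, with median shares of 41.1% for Atp2b1 and 42.8% for Atp2b2. In somas Atp2b2 was first in 10 of 16 libraries (median share 44.9%), Atp2b1 in 5 (37.0%) and Atp2b3 in 1 (14.4%). Per kilobase of 3′UTR the order by 3′UTR reads changed. The 3′UTR of Atp2b3 is annotated at 842 nt in GENCODE, against 5182 nt for Atp2b1 and 4709 nt for Atp2b2. Atp2b3 was then first in 13 of 16 somas and in 7 of 14 dendrite libraries. The reads were counted on another annotation. Whether these lengths match the counted regions was not tested, so this lead is uncertain. The make-up by 3′UTR reads varied more between dendrites than between somas in these libraries. The share of Atp2b1 ran from 0% to 99.5% in dendrites and from 16.9% to 78.3% in somas. This difference was not tested and goes with fewer reads in dendrites.

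The scale of the libraries set the sign of 3 genes. When the dendrite libraries were rescaled to bring the median gene close to 0, the log2 fold changes became 0.32 for Atp1b1, 0.95 for Atp1b2 and 0.07 for Atp2a2, and -0.09, -0.83, -1.75 and -2.04 for Atp2b1, Atp2b2, Atp2b3 and Atp1b3, with 0 of the 7 called (edgeR, smallest adjusted p = 0.458, and 0 at an unadjusted p under 0.05), where 5.04% of all genes were called higher and 0.846% lower. Median-of-ratios scaling called 1 of the 7 lower, Atp1b1 (edgeR adjusted p = 0.0270), and 9.26% of all genes lower and 0.744% higher. In the 14 neurons labelled with a spike-in, scaled to the spike-in reads, 6 of the 7 were called lower, with log2 fold changes from -3.69 for Atp1b1 to -6.94 for Atp2b3. With that scale 61.4% of all genes were called lower, 0.147% higher, and their median was -3.96. On the TMM scale each value is relative to the other RNA of the same compartment, so less RNA of all kinds in the dendrite tube does not show in it.

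**Figure D3:**
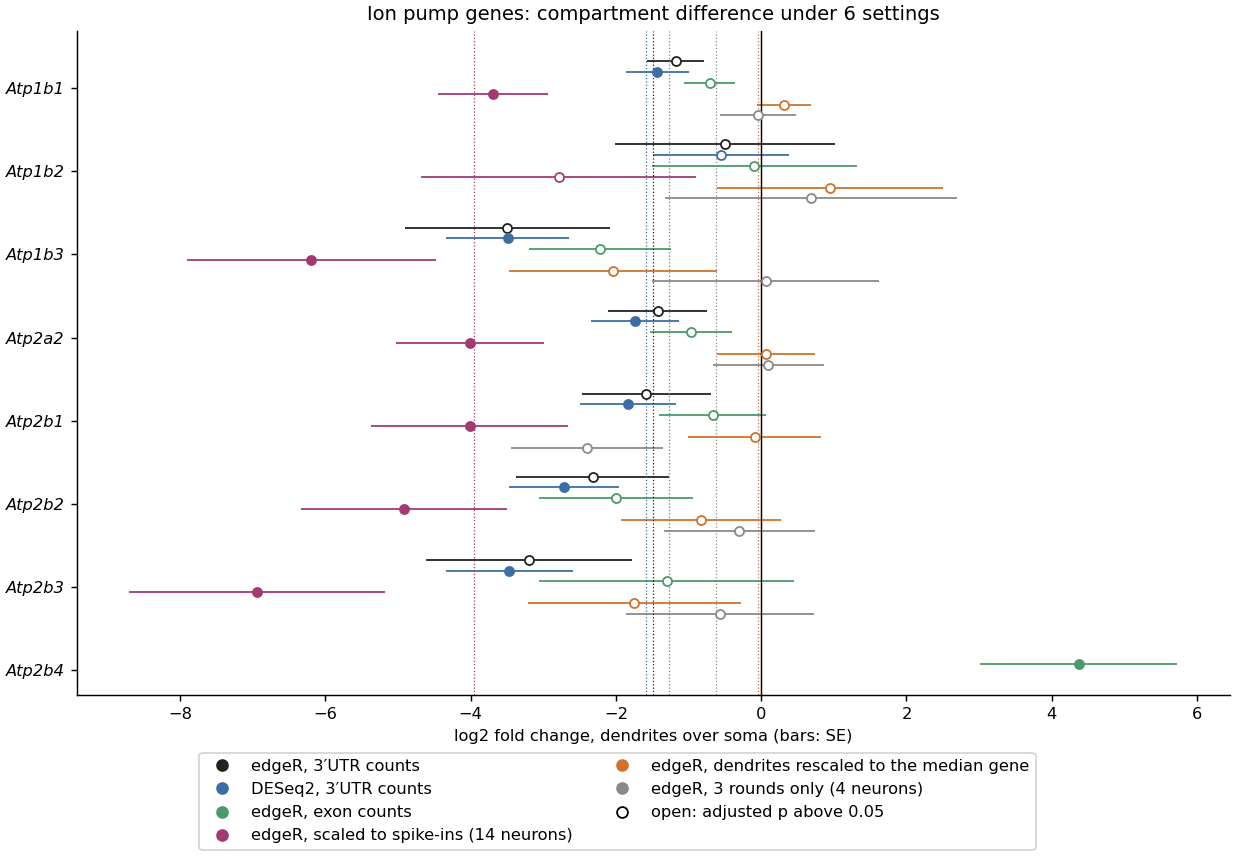
Log2 fold change, dendrites over soma, of the 8 genes under 6 settings, with SE as bars. Filled points had an adjusted p of at most 0.05, and dotted lines mark the median of all genes in the setting of that colour. The estimates follow the median gene of each setting, from about -3.96 with spike-in scaling to near 0 with rescaled dendrites, and Atp2b4 has a value on exon counts alone.

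The number of amplification rounds moved with these values. In the neurons of 2 rounds the mean paired difference of log2(CPM + 1) was -1.55 for Atp1b1, -3.67 for Atp1b3, -2.31 for Atp2a2 and -3.65 for Atp2b2. In the neurons of 3 rounds the same means were -0.21, -0.14, -0.11 and -0.25. The median gene moved in the same direction, with a log2 fold change of -1.73 in the edgeR fit to the neurons of 2 rounds and -0.62 in that of 3 rounds. Atp1b2 (-0.71 and 0.38) and Atp2b3 (-3.065 and -0.69) also moved this way, and Atp2b1 showed no such gap on 3′UTR counts (-1.81 and -2.50). On exon counts Atp2b1 did show it (-1.40 and 0.15), and Atp2b3 went the other way (0.18 and -1.19). The interaction of compartment and rounds was largest for Atp1b3, 4.88 (SE 2.90), and passed for 0 of the 7 genes (edgeR, adjusted p = 1.00 for each, and 0 at an unadjusted p under 0.05) and for 0% of all 10880 genes, where 288 genes had an unadjusted p under 0.05. The part of the number of rounds in the values was not tested beyond this, and neurons 1 and 2 also had no spike-in according to the labels, whereas the study's methods have it added to every tube.

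Exon counts of the same libraries gave a second readout. Reads on exons and on the 3′UTR were near equal in sum for Atp1b1 (exon to 3′UTR ratio 1.05 in dendrites and 1.04 in somas), Atp2a2 (1.04 and 1.02) and Atp1b2 (1456 exon and 1455 3′UTR reads in dendrites, 6692 and 6633 in somas). Atp1b3 had 3.34 times as many exon reads as 3′UTR reads in dendrites and 2.48 times in somas, and Atp2b1 had 2.01 and 1.55 times. Atp2b2 had fewer exon reads (0.697 and 0.675), and for Atp2b3 the exons received 0.181 of the number on its 3′UTR in dendrites and 0.0482 in somas. The annotation behind the exon counts is not given in the sources used here, and which transcript parts account for these ratios was not tested.

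**Figure D4:**
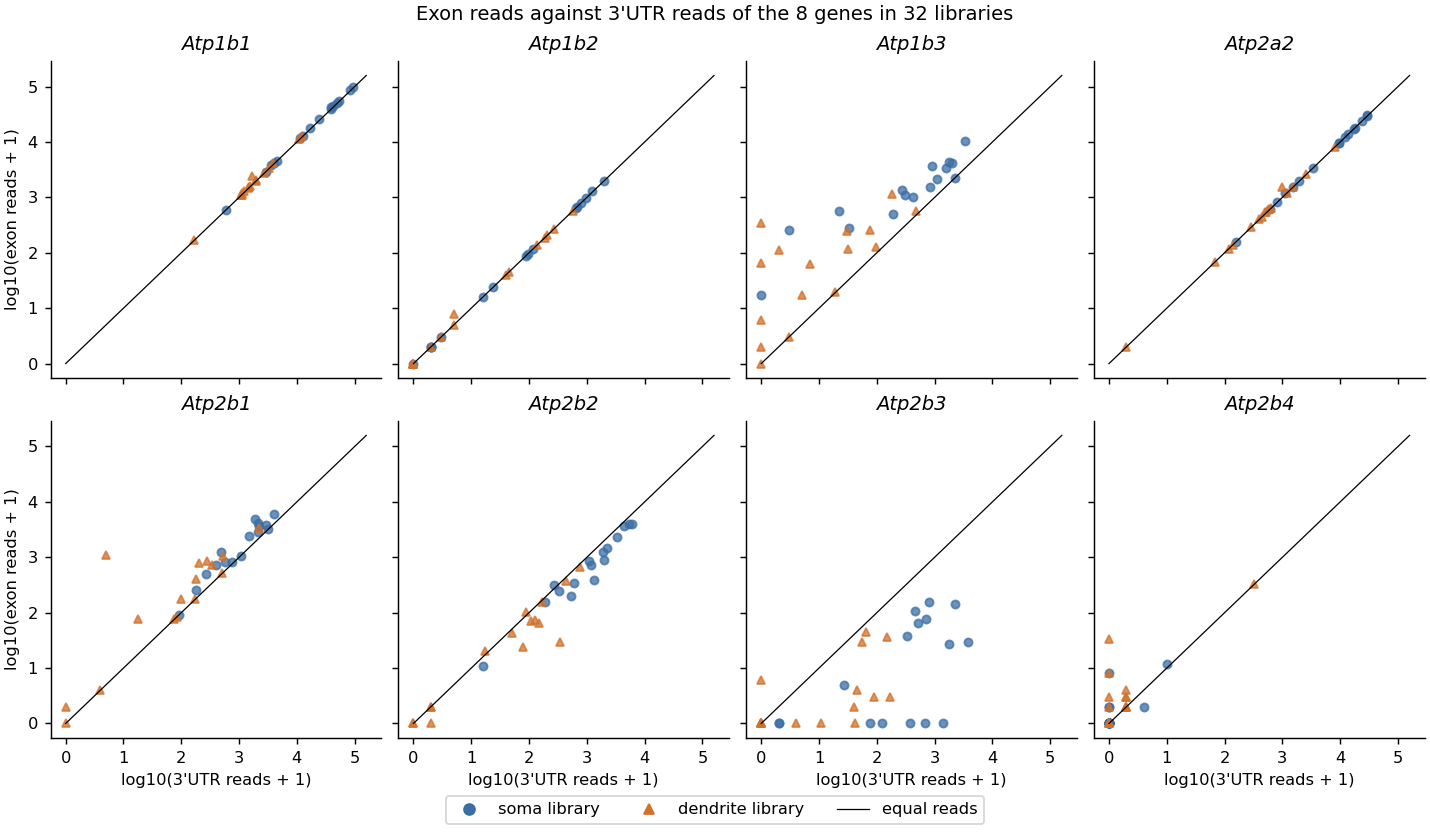
Reads on exons against reads on the 3′UTR for each gene, both as log10(reads + 1), with 1 point per library (circles for somas, triangles for dendrites) and a line where both are equal. Atp1b1, Atp1b2 and Atp2a2 lie on or near the line, Atp1b3 and Atp2b1 mostly above it, and Atp2b3 mostly below it.

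The readout mattered most where the counts parted. With exon counts Atp1b3 reached 10 reads in 12 dendrite libraries and all 16 somas, and the dendrites of neuron 3 held 1114 exon reads of Atp2b1 but 4 on its 3′UTR. On exons, where the median of all genes was -1.275, the log2 fold changes were -0.71 for Atp1b1, -0.09 for Atp1b2, -2.22 for Atp1b3, -0.96 for Atp2a2, -0.67 for Atp2b1, -1.996 for Atp2b2 and -1.30 for Atp2b3, with 0 of these 7 called (edgeR, adjusted p from 0.147 to 0.972, 2 of them at an unadjusted p under 0.05), where 2.62% of 9804 genes were called lower. DESeq2 on exon counts called 4 of them lower (Atp1b1, Atp1b3, Atp2a2 and Atp2b2), against 46.5% of all genes, and 1 gene higher, described next, against 3.68%.

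Atp2b4 was the one gene called higher in dendrites on exon counts, where 1.00% of all genes were. It had 327 reads in the dendrites of neuron 9, 32 in those of neuron 6 and 7 or fewer in the other 14 dendrite libraries, beside 11 reads in the soma of neuron 2, 7 in that of neuron 5 and at most 1 in the others. Dendrites were higher in 10 of the 14 neurons with reads, most of them by a few reads. The gene had 1 or more exon reads in 12 dendrite libraries and 5 somas, and the filter asked for 16 or more libraries of either compartment. It was thus tested mainly because of the dendrite libraries, the side on which it was called higher. The fold change and adjusted p below are therefore not independent of the filter. The log2 fold change was 4.37 (SE 1.36, edgeR adjusted p = 0.0443), and it ran from 3.54 to 4.77 with 1 neuron left out. It moved by over 1.5 times in fold without neuron 9 (3.54), 6 or 15 (both 3.73). The adjusted p was at most 0.05 in 4 of the 16 fits that left out 1 neuron (neurons 1, 2, 3 or 5) and ran from 0.0236 to 0.0947. It was 0.0113 with DESeq2, and the call was lost without the neuron block, without the filter and, with the stricter filter, the gene was not tested.

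The end counts assign reads to numbered 3′ end features of a gene, the last 500 nt before each annotated end as the study's methods give them, without coordinates in the table used here. Atp1b1, Atp1b3 and Atp2b1 had 1 such feature each. For Atp2b1 this feature held 42.6% of the 3′UTR reads in dendrites and 41.9% in somas, against 81.6% to 99.4% in dendrites for the other 7 genes. Atp2a2 had 2 features, and feature 1 held 91.2% of the end reads in dendrites and 90.1% in somas. Atp2b2 had 5, of which features 1, 2 and 3 held 21.0%, 47.0% and 15.5% in dendrites and 35.6%, 50.3% and 13.3% in somas. Feature 4 of Atp2b2 held 16.5% in dendrites, but 317 of its 344 reads came from neuron 13.

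The share of the lower-numbered of the 2 most read ends was compared within neurons with at least 10 reads on them in both compartments. For Atp2a2 this share ran from 65.1% through 96.2% to 100% in dendrites and from 77.6% through 93.0% to 98.8% in somas (n = 15). It was higher in the dendrites of 11 neurons and lower in 4, which lay far below (neurons 4, 5, 11 and 14), and the means were 89.6% ± 11.7 and 91.3% ± 5.60 (SD). For Atp2b2 the share of end 1 ran from 0% through 30.8% to 74.0% in dendrites and from 1.07% through 41.4% to 98.9% in somas (n = 11). It was lower in the dendrites of 8 neurons and higher in 3, with means of 31.7% ± 26.0 and 46.4% ± 25.8 (SD). For Atp2b3, ends 2 and 4 were compared, and end 2 had means of 71.8% ± 45.8 in dendrites and 90.5% ± 8.86 in somas (SD, n = 7), where the dendrites of neurons 9 and 14 stood at 0% and 10.0% beside 92.7% or more in the other 5. Atp1b2 used end 1 for nearly all reads in both compartments (n = 5), and only 1 of its neurons differed at all, so that the exact test cannot give a p under 1.

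The exact signed-rank test (two-sided) gave p = 0.762 for Atp2a2, p = 0.175 for Atp2b2, p = 0.938 for Atp2b3 and p = 1 for Atp1b2, and an adjusted p of 1 for each. The share of genes with an unadjusted p under 0.1, the level the study used, was 8.40% of the 3522 genes tested, and 0 of these 4 genes was among them. Over all genes 0 passed after adjustment and 159 had p under 0.05. Leaving out neuron 4 or neuron 11 gave p = 0.0645 for Atp2b2 (exact signed-rank test, lower in 8 of 10 neurons). Both are among the 3 neurons in which its share was higher in dendrites. The other fits that left out 1 neuron gave p from 0.160 to 0.322, and the lowest adjusted p was 0.976 (same test).

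**Figure D5:**
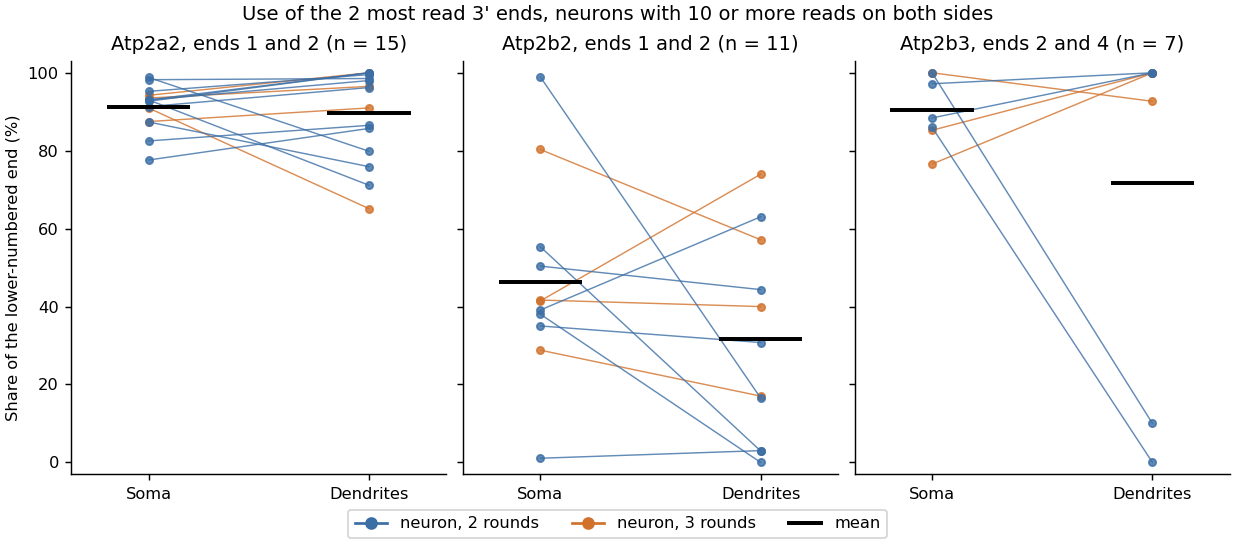
Share of the lower-numbered end among the 2 most read 3′ ends, in percent, in the soma and dendrites of neurons with at least 10 reads on both sides, for Atp2a2 (n = 15), Atp2b2 (n = 11) and Atp2b3 (n = 7). Lines join the compartments of a neuron, blue for 2 rounds of amplification and orange for 3, and black bars are means. The lines of Atp2b2 cross in both directions, and 2 of the Atp2b3 lines fall to 10% or less.

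Other genes of sodium, calcium and chloride transport were read from lists. Their counts stand beside the shares of all genes, of which 5.71% were called lower by edgeR, 26.7% were lower at an unadjusted p under 0.05, and DESeq2 called 46.2% lower and 4.26% higher. Of 12 genes for alpha and regulatory subunits of the sodium pump, 5 were tested and 0 were called in either direction (edgeR, 0 at an unadjusted p under 0.05), with a median log2 fold change of -0.10. DESeq2 called 1 of them lower. Fxyd6, a small regulator of the pump, had medians of 120.5 CPM in dendrites and 40.8 in somas (log2 fold change 0.73, SE 1.06, edgeR adjusted p = 0.636). Its log2 fold change ran from 0.40 to 1.33 with 1 neuron left out.

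Of 11 other calcium pumps and pump partners, 6 were tested and 6 were below 0, beside 78.8% of all genes. At an unadjusted p under 0.05, 2 were lower, and DESeq2 called 4 lower, beside 26.7% and 46.2% of all genes. By edgeR 1 was called lower, beside 5.71%. That gene was Nptn, neuroplastin, known as an auxiliary subunit of the PMCAs. It ranged from 0 through 221 to 910 CPM in dendrites and from 438 through 1037 to 2204 CPM in somas, and was higher in the soma of 15 of 16 neurons. Its log2 fold change was -2.60 (SE 0.76, edgeR adjusted p = 0.0336), -1.11 from the median gene, and the call held in 10 of the 16 fits that left out 1 neuron (adjusted p from 0.0223 to 0.110, lost without neurons 1, 3, 12, 13, 15 or 16). Calm2, which encodes calmodulin, an activator of PMCAs, had medians of 1504 CPM in dendrites and 3600 in somas (log2 fold change -1.34, SE 0.45, edgeR adjusted p = 0.0568). Alternatives that called Calm2 lower were DESeq2, the sign-flip test, median-of-ratios scaling, spike-in scaling and no filter beyond 1 read. So did leaving out neurons 15 and 16 (chosen after seeing the data) and 1 of the 16 fits without 1 neuron. The other alternatives did not call it.

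Of 9 sodium-calcium exchangers, 7 were tested and 0 were called (1 lower at an unadjusted p under 0.05, and 4 called lower by DESeq2, beside 26.7% and 46.2% of all genes), and the most read, Slc24a2 and Slc8a1, had log2 fold changes of -1.67 (SE 1.15, edgeR adjusted p = 0.302, from -2.11 to -1.03 with 1 neuron left out) and -1.52 (SE 0.93, adjusted p = 0.250). Of 16 ER calcium store genes, 12 were tested and 0 were called (4 lower at an unadjusted p under 0.05; 6 lower and 1 higher by DESeq2), which is near those shares. The ER chaperone Canx had -1.22 (SE 0.61, edgeR adjusted p = 0.164), and Tmem66, a regulator of store-operated calcium entry now named Saraf, had -0.50 (SE 0.58, adjusted p = 0.551). Of 8 genes of mitochondrial calcium uptake, 7 were tested and 0 were called (1 lower at an unadjusted p under 0.05; 3 lower by DESeq2), with 0.11 (SE 0.71, edgeR adjusted p = 0.926) for Smdt1, a subunit of the uniporter, and -0.87 (SE 0.65, adjusted p = 0.341) for the outer membrane channel Vdac1. Of 6 chloride cotransporters, 3 were tested and 0 were called (1 lower at an unadjusted p under 0.05; 1 lower by DESeq2), with -0.34 (SE 1.02, edgeR adjusted p = 0.830) for the neuronal potassium-chloride cotransporter Slc12a5. The medians of the lists ran from -1.66 for the ER store genes to -0.10 for the sodium pump subunits, beside -1.49 for all genes.

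The genes with the most similar pattern over the 32 libraries, after the mean of each compartment was removed, were taken among 3478 genes with at least 10 reads in at least 24 libraries. For Atp1b1 they included Syt1 (Pearson r = 0.805) and Sparcl1 (0.738), and for Atp2a2 they were Dner (0.887), App (0.877) and Psap (0.830). For Atp1b2 they were Prdx6 (0.666), Psme1 (0.644) and Wnk1 (0.624), and for Atp1b3 Hadha (0.751), Ugcg (0.741) and Tbc1d9b (0.727). For Atp2b1 they were Rb1cc1 (0.752), Sobp (0.749) and Nfu1 (0.747), for Atp2b2 Ermp1 (0.804), Cox20 (0.748) and Snph (0.719), and for Atp2b3 Ube3c (0.701), Sema6d (0.699) and Fam126b (0.699). In Atp2b1 the likeness was in the dendrites (r = 0.890, 0.847 and 0.812) and hardly in the somas (0.101, -0.0395 and 0.190), while the genes named for Atp1b1 and Atp2a2 had r of at least 0.727 in both compartments. Among the members themselves the highest values were 0.620 for Atp1b3 with Atp2b3 and 0.524 for Atp1b1 with Atp2a2, and the lowest 0.0193 for Atp1b3 with Atp2b1. These values describe libraries that share cells, depth and amplification.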

How the data were processed

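The authors trimmed the reads, aligned them to mm10 with STAR (version 2.4.0 in the submitters' processing notes) and counted uniquely mapped reads with VERSE. The deposited values are raw counts of reads, not normalized and without molecular identifiers: on the union of each gene's 3′UTRs (44081 genes), on 74532 3′ end features, and on the exons of 23453 genes and 92 spike-ins. Depth is counted reads only. Dendrites had 646521 to 6954420 reads on 3′UTRs and somas 925525 to 21169974, so the error of each value is that between neurons. 0 pairs of libraries held identical counts.

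From these counts, genes counted in 16 or more libraries (1 read or more) were fitted in R 4.3.3 with TMM factors and the robust quasi-likelihood test of edgeR 4.0.16, with the neuron as a block and Benjamini-Hochberg adjustment over all genes tested. CPM are counts divided by the TMM-scaled library size, and log2 values of CPM use a pseudocount of 1. A dendritic fraction used neurons with at least 10 scaled reads in total. Lengths, coordinates and sequences came from GENCODE on GRCm38, the build named mm10, whose annotation is not the one the authors counted 3′UTRs on. Python 3.11 with SciPy 1.17.1, NumPy 2.4.6, pandas 2.3.3 and Matplotlib 3.10.9 gave the other values and the figures. The fit was tested on simulated data.

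Both compartments come from the same cell, which pairs the libraries. Checked over genes, the correlation of dendrites and soma after removal of the compartment means was 0.0887 ± 0.0772 (SD, n = 16) within a neuron and -0.00559 ± 0.0526 (SD, n = 240) between neurons. Nothing in the labels says which neurons share a culture.

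The members and the lists were chosen with earlier results of these data known. All 8 genes were named, with the called and the 2 most read genes of each list and the 3 genes most alike in pattern. A few genes that this rule would name are not reported here. Alternatives were DESeq2 1.42.0, an exact sign-flip test, other scalings and filters, exon counts, no block, the neurons of 2 or of 3 rounds, and each neuron left out. Strand was used in the counting of 3′UTRs, and the settings for exons are not given in the sources used here.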

Additional observations from a re-analysis of the deposited data

Results flagged for a closer look

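The dendrites and soma of neuron 1 held 65 and 59 spike-in reads and those of neuron 2 held 72 and 80, although the labels give no spike-in for them, and the other libraries held 3083 to 283471 spike-in reads. The study's methods, unlike the labels, have spike-in added to every tube, so whether these 2 neurons received it is unresolved. These values stood out because they are above the 3 reads that a count of 0 allows, and both neurons were left out of the scaling to spike-ins.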

How the results depend on the processing

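The counts are shallow in dendrites and vary widely between neurons, so a gene that missed the threshold is not shown to be equal in both compartments. Counts of pump genes called lower were 0 as reported, 6 with DESeq2, 6 with spike-in scaling, 3 with the sign-flip test, and 1, Atp1b1, with median-of-ratios scaling, without the replicate block, and in 2 settings chosen after seeing the data (TMM in the 14 neurons with a spike-in, neurons 2 and 14 left out). Leaving out 1 neuron gave 0 to 1, and exon counts called 1 higher, Atp2b4, which passed the filter mainly through its dendrite libraries. On exon counts (alternatives chosen after seeing the data) DESeq2 called 4 lower, and the 1 called higher became 0 without the block and with either other filter, and 0 to 1 with 1 neuron left out.

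Counts of all genes called higher and lower were 90 and 621 as reported, 463 and 5029 with DESeq2, 353 and 2144 with the sign-flip test, 548 and 92 with rescaled dendrites (85.6% of calls higher against 12.7%), 16 and 6681 with spike-ins, 15 and 143 without a filter, 157 and 77 without the replicate block, 43 and 354 for 2 rounds, and 4 and 1 for 3 rounds. The count of lower genes was 1008 with median-of-ratios scaling, 181 with at least 10 reads, 257 on exons and 101 without neurons 15 and 16 (chosen after seeing the data). With 1 neuron left out they were 56 to 120 and 130 to 990, the lower count moving by over 1.5 times for neurons 1 (320), 2 (948), 3 (253), 4 (349), 5 (990), 7 (401), 10 (328), 12 (295), 13 (244), 15 (236) and 16 (130), and the higher count for neurons 4 (56), 7 (57) and 10 (57). The number of pump genes with a changed share of ends was 0, and 0 to 1 with 1 neuron left out.

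Directions turned as follows; the cause was not tested. With rescaled dendrites, Atp1b1 became 0.32, Atp1b2 0.95, Atp2a2 0.066, Calm2 0.15, Canx 0.27, Tmem66 0.99, Vdac1 0.62 and Slc12a5 1.15. Without the replicate block, Atp1b2 became 0.49, and on exon counts Atp1b2 0.91, Atp2b1 0.21 and Atp2b3 0.11. With 3 rounds, Atp1b2 became 0.69, Atp1b3 0.064, Atp2a2 0.095, Slc24a2 0.93 and Slc12a5 1.30. Without neurons 15 and 16, Atp1b2 became 0.16 and Slc12a5 0.35. On exons, Slc12a5 became 0.020. Fxyd6 became -1.30 with spike-ins, and Smdt1 -0.20 with DESeq2, -0.20 with median-of-ratios scaling, -2.34 with spike-ins, -0.023 with TMM in 14 neurons, -0.32 with 2 rounds and -0.22 with the sign-flip test. With 1 neuron left out, Atp1b2 ran from -1.003 to 0.22 and on exons from -0.67 to 0.31, Slc12a5 from -0.65 to 0.21, and the change in the share of Atp2a2 end 1 ran from -0.024 to 0.00061, above 0 without neuron 4. The block changed no other call of a pump gene on 3′UTR counts. Nptn lost its call with rescaled dendrites, with at least 10 reads, without the block, in either group of rounds and without neurons 15 and 16 (adjusted p from 0.0577 to 0.717). Over all alternatives the 7 genes' lowest adjusted p was 0.0002 and the highest 0.994. The number of libraries with at least 10 reads moved by over 1.5 times on exon counts for Atp1b3, Atp2b3 and Atp2b4.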
